A study of Mus musculus with 2 samples.

Results

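Interleukins are secreted messengers of immune and tissue cells, and each acts through a receptor made of 1 or more membrane chains. The genes described here are those whose symbol begins with Il and a digit, which takes in interleukins, their receptor chains, and their binding proteins and antagonists. They were chosen by a rule on the symbol and not on a measured value, but with earlier results of these data known. Of 18193 genes with a probe set of 1 symbol, 73 were members, read by 115 probe sets. By role, 32 members encode ligands, 33 encode receptor chains and 6 encode inhibitors or decoy receptors. The other 2 carry the symbol without being cytokines or receptors: Il4i1, an amino acid oxidase gene induced by interleukin 4, and Il1bos, an opposite-strand transcript of Il1b.

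Liver RNA of Bglu3 congenic mice was hybridised to 1 Affymetrix array and liver RNA of C57BL/6 apoE-/- mice, the controls, to another. Bglu3 is a blood glucose locus on chromosome 1, and congenic mice hold a chromosome segment of a donor strain within another background, here C57BL/6. Both groups are labelled as hyperglycemic, were weaned onto chow at 3 weeks, received a Western diet from 6 weeks of age for 12 weeks and so were 18 weeks old at its end. The labels give neither the apoE genotype of the congenic mice, the donor strain, the sex, nor the number of mice behind an array. Each group is 1 array, so the spread among animals is unknown, and every difference below compares these 2 arrays without a replicate check or a p-value.

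In the liver, interleukins are known for several jobs. Interleukin 6 and interleukin 1 drive hepatocytes to make acute phase proteins, the first through the gp130 chain, Jak kinases and Stat3, the second through MyD88 and NF-kappaB. Interleukin 1 beta and interleukin 18 are made as precursors and are cut by caspase-1 inside the inflammasome. Interleukin 33 is an alarm signal released by damaged cells, and interleukin 10 restrains macrophages.

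Differences are given as log2(intensity + 5) of the congenic array minus that of the control array. A gene takes the value of its brightest probe set and counts as expressed when that probe set reaches the median of its array on at least 1 array. The array medians were 19.3 (congenic) and 19.7 (control). A difference is counted as higher or lower when it reaches 1.5-fold, which is 0.585 on this scale. The hepatocyte markers, which check the tissue, were measured for 9 of 10 genes, all expressed, with summed intensities of 73340 (congenic) and 69508 (control). Intensities of different probe sets do not rank transcript amounts, so genes are compared across arrays and not with each other.

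Expression was reached by 37 of 73 members (50.7%), compared with 69.3% of all genes, and this gap was not tested. By role it was reached by 13 of 32 ligands, 19 of 33 receptor chains and 5 of 6 inhibitors, shares that were not tested against each other and that also depend on how bright each probe set is. The ligands of helper T cells, Il2, Il4, Il5, Il9, Il13, Il17a and Il21, were all below the array medians, as was Il10, at 10.4 (congenic) and 10.7 (control). Il6 itself was dim as well, at 7.35 (congenic) and 2.46 (control). The 36 dim members lay at or under 19.2 (congenic) and 18.3 (control), and 2 of them were higher and 7 lower by the size rule. Among all 5580 dim genes 11.5% were higher and 14.4% lower by that rule, so the differences of dim members are not read further.

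Among the 37 expressed members, 5 were higher in the congenic array and 2 lower. Over all 12613 expressed genes, 7.59% were higher and 5.26% lower, together 12.9%, against 7 of 37 members (18.9%), and the gap between these shares was not tested. The median difference was 0.22 for expressed members and 0.04 for all expressed genes. The 5 higher members were Il12b, Il10ra, Il17rb, Il33 and Il3ra, and the 2 lower members were Il1r1 and Il6ra. The filter let 5 of the 37 (Il12b, Il11, Il17d, Il12rb2 and Il1f10) pass through the congenic array alone and none through the control array alone, and such genes are higher in the congenic array by selection. Of the 32 members at or above the median on both arrays, 4 were higher and 2 lower, and their median was 0.11. Of all 11572 genes that passed on both arrays, 5.75% were higher and 3.3% lower, with a median of 0.04.

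**Figure D1:**
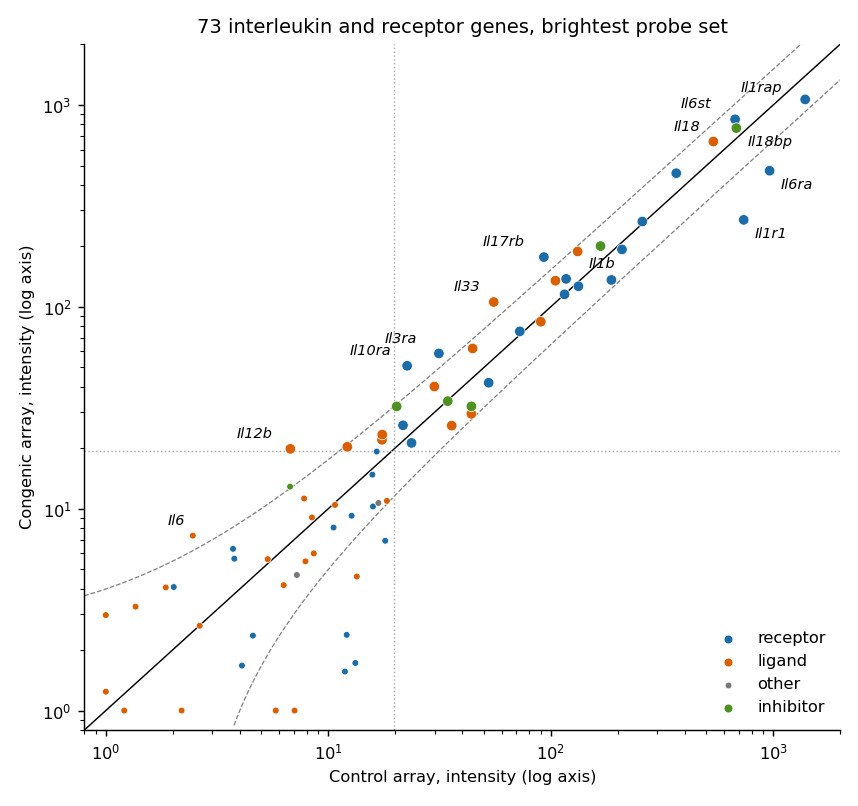
Intensity of the brightest probe set of each of the 73 members on the control array (x) and the congenic array (y), both on log axes, coloured by role, with large points for expressed members. The solid line marks equal intensity, dashed lines the 1.5-fold rule after adding 5, and dotted lines the array medians of 19.7 and 19.3. Il1r1 and Il6ra lie well below the lower dashed line, and Il12b starts from a control value of 6.75.

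The size of a difference has to be read against the level. Of expressed genes with a mean intensity under 20, 51.3% passed the size rule, and of those at 500 or more, 5.81%. The 2 lower members were both in the brightest band, in which 2.52% of 2580 genes were lower, while 6 members fell in it. Of the 5 higher members, 4 had mean intensities under 100. Il12b lay in the band under 20, in which 25.8% of genes were higher, Il10ra and Il3ra in that from 20 to 50 (10.7%), and Il33 in that from 50 to 100 (8.80%). Il17rb lay between 100 and 500, where 5.31% were higher.

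**Figure D2:**
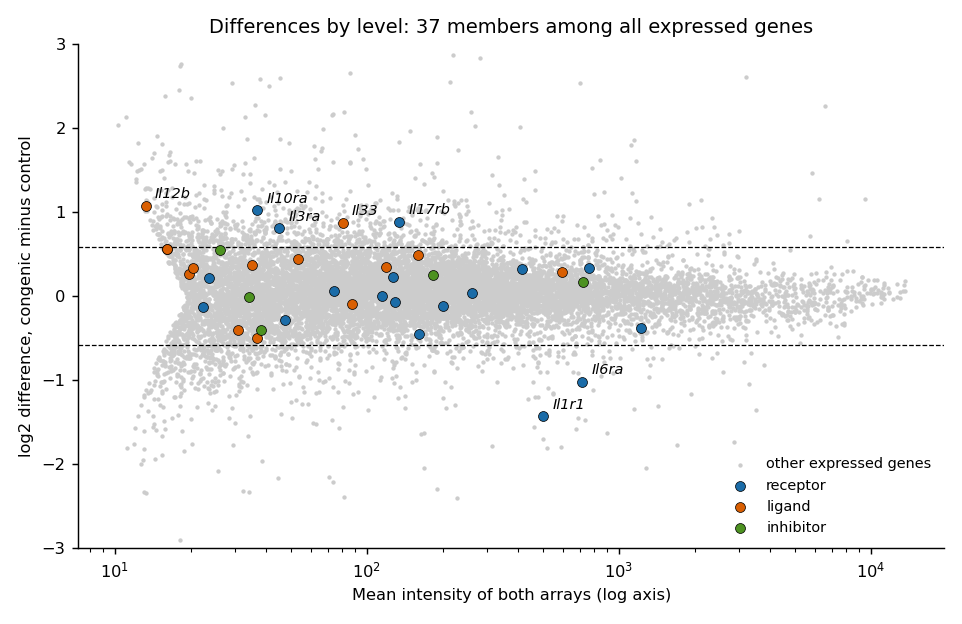
The log2 difference (congenic minus control) of the 37 expressed members, coloured by role, against the mean intensity of both arrays (log axis), over the other expressed genes in grey. Dashed lines mark 1.5-fold, and the y axis is limited to 3 in either direction. The grey cloud narrows to the right, and Il1r1 and Il6ra lie near its lower edge, at levels where 2.52% of genes are lower.

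The largest difference among expressed members was that of Il1r1, the signalling receptor chain for interleukin 1 alpha and beta. Its intensity was 269 in congenic liver and 735 in control liver, a log2 difference of -1.43, which is 2.70-fold lower. It ranked 59th from the lowest of 12613 expressed genes. The value rests on 1 probe set, since the other probe set of the gene was dim, at 3.36 and 1.97. Il1rap, the accessory chain that Il1r1 needs to signal and that the receptors for interleukins 33 and 36 share, stood at 1062 against 1389, a log2 difference of -0.38. Its other expressed probe sets gave -0.97, -0.08 and 0.12, so the probe sets of Il1rap do not give 1 direction.

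The decoy and the antagonist of the same system differed less. Il1r2, a decoy receptor that binds interleukin 1 without signalling, stood at 32.1 in congenic and 43.9 in control liver (-0.40). Il1rn, the receptor antagonist, stood at 199.6 against 167 (0.25). A further probe set of Il1rn gave 89.7 against 126 (-0.46) and the third 0.19, so its probe sets differed in direction. The ligands were somewhat higher and within 1.5-fold. Il1b stood at 188 against 132 (0.49) and Il1a at 134.5 against 105 (0.35), each with 1 probe set. Il1b and its opposite-strand transcript Il1bos cannot be assumed to be read apart, and Il1bos was dim at 4.69 and 7.22.

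Il33, the alarm cytokine, was higher on the congenic array, with 105 against 55.3 (log2 difference 0.87). It was the 1 member of the IL-1 family past the size rule in that direction. Il1rl1, which encodes its receptor, was not analysed here. Il18, which drives interferon gamma production, stood at 658 against 537 (0.29), and its soluble antagonist Il18bp at 766 against 681 (0.17). Both were a little higher on the congenic array. The interleukin 18 receptor chains Il18r1 and Il18rap were dim, the highest value of either being 6.32. Of the interleukin 36 branch, Il1f6 (-0.50) and Il1f9 (-0.41) encode agonists and were lower without reaching 1.5-fold, Il1f5, which encodes the antagonist, was at -0.01, and the receptor chain Il1rl2 at -0.13. The agonist Il1f8 was dim, and Il1f10, a further member of the family, differed by 0.26 and passed the filter through the congenic array alone. In all, 14 of 19 measured IL-1 family members were expressed, 7 above and 7 below a difference of 0, with a median of 0.08.

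**Figure D3:**
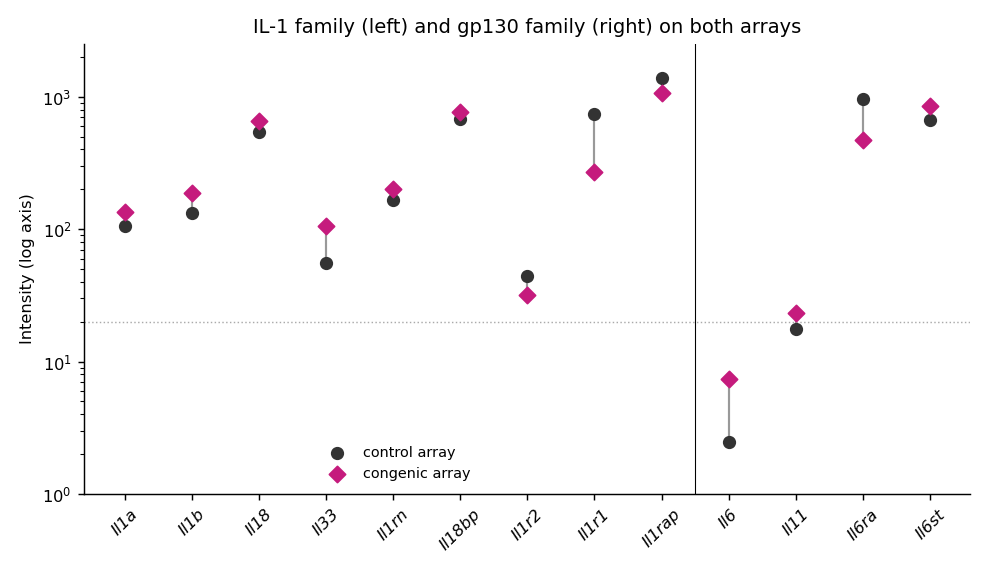
Intensity (log axis) of selected members of the IL-1 family (left of the vertical line) and the gp130 family (right) on the control array (circles) and the congenic array (diamonds), 1 array each, with the dotted line at the control array's median. The receptor chains Il1r1 and Il6ra are lower on the congenic array, while Il1a, Il1b, Il18, Il33 and Il6st are higher.

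The gp130 family showed its largest difference in Il6ra, the chain that binds interleukin 6. Its intensity was 472 in congenic liver and 961 in control liver (log2 difference -1.02, 2.03-fold lower), rank 170 from the lowest. A further probe set, at 27.1 against 59.1, gave -0.999, which makes Il6ra the member whose expressed probe sets lay closest together. Il6st, the gp130 chain that carries the interleukin 6 signal, did not share this direction. It stood at 847 against 672 (0.33), and its other expressed probe sets gave 0.09 and -0.13. Il11, which signals through the same chain, stood at 23.3 against 17.5 (0.33) and passed the filter only through the congenic array. Il27ra, Il31 and Il31ra were dim.

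Sequences before the start sites are shown for the members past 1.5-fold with a probe set over 50 on both arrays, to set their promoters beside the differences. They are the 250 bases upstream of each start in RefSeq (GRCm38.p6), written 5′ to 3′ on the strand of the gene, with capitals for matches on either strand to 4 short motifs. The motif CACGTG is the E-box bound by CLOCK, Myc and related factors, and TGANTCA is that of AP-1, the factor family of Fos and Jun. Stat factors bind TTCNNNGAA, and the letters TATAAA form the TATA box. Windows were found for 57 of the 73 members.
Il1r1 upstream start, chr1:40224830-40225079, plus strand: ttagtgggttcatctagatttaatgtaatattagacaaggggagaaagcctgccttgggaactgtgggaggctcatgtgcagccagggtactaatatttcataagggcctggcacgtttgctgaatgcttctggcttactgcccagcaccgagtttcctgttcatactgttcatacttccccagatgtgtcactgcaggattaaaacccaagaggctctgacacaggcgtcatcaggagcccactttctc
Il1r1 downstream start, chr1:40266336-40266585, plus strand: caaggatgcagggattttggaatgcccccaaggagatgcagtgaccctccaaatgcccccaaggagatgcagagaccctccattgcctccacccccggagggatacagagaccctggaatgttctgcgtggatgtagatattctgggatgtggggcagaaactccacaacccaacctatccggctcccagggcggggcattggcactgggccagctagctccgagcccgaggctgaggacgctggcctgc
Il6ra, chr3:89913197-89913446, minus strand: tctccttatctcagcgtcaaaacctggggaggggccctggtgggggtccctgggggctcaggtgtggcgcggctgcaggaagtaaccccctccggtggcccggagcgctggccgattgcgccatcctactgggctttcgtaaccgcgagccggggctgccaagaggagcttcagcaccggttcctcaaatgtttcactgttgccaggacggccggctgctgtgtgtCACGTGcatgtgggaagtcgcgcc
Il17rb, chr14:30008897-30009146, minus strand: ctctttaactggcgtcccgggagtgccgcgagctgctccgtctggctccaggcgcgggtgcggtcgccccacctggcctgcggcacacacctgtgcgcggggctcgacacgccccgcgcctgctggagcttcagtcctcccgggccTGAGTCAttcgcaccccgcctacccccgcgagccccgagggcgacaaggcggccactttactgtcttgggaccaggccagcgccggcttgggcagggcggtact
Il33 upstream start, chr19:29924863-29925112, plus strand: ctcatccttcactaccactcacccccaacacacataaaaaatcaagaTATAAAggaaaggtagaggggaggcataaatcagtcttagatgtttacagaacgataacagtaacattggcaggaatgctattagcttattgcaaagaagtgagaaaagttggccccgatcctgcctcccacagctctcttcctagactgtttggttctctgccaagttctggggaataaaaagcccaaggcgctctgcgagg
Il33 downstream start, chr19:29945540-29945789, plus strand: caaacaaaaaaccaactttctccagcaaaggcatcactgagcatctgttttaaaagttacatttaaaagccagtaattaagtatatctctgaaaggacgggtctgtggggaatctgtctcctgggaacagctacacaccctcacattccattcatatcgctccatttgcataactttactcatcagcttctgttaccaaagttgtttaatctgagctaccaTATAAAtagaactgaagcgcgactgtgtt

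Neither window of Il1r1 held any of the 4 motifs. Il6ra held CACGTG from base 24 to base 19 before its start, a motif found in 6.02% of all 32851 windows and in 2 of the 70 windows of members, the other being that of Il1r2 with 2 copies. Il17rb held TGAGTCA from base 104 to base 98 before its start. TGANTCA occurred in 6.75% of all windows and in 14 of the 70 member windows. Both windows of Il33 held TATAAA, from base 203 to 198 in one and from base 29 to 24, the usual place of a TATA box, in the other, and 12.4% of all windows held it. TTCNNNGAA was in none of the 6 sequences, and in 7.02% of all windows and 8 of 70 member windows. A match describes these letters only.

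Il17rb, a receptor chain for interleukin 25 (Il25), was higher on the congenic array with 176 against 93.0 (log2 difference 0.89, 1 probe set). Il25 was dim, at 1 and 1.21. The common chain Il17ra, which pairs with the other receptors of this family, showed almost the same intensity on both arrays, 115.1 and 115.2. Il17rc, which pairs with Il17ra to bind interleukin 17A, stood at 264 against 257 (0.04) in its brightest probe set and at 19.7 against 2.33 in another (1.75), the widest disagreement between probe sets of any member. It is named for this disagreement, seen in the values. Il17re, the receptor chain for interleukin 17C, differed by -0.45 with 136 against 187, and its other expressed probe set by 0.00. Il17d passed the filter through the congenic array alone (20.2 against 12.2).

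Il10ra, the ligand-binding chain for interleukin 10, was higher on the congenic array, with 50.97 against 22.6 (log2 difference 1.02), and its other probe sets were dim. Il10rb, the partner chain shared with interleukin 22 and the lambda interferons, stood at 458 against 366 (0.32), and another of its probe sets read 47.9 on both arrays. Il22ra1, the interleukin 22 chain of epithelial cells and hepatocytes, differed by 0.05 (75.5 against 72.5). Il3ra, the interleukin 3 receptor alpha chain, was higher with 58.7 against 31.4 (0.81, 1 probe set). Il12b, the p40 chain shared by interleukins 12 and 23, was higher with 19.8 against 6.75 (1.08). It just passed the median of the congenic array, and its other probe set, at 5.99 and 7.62, went the other way. Il12rb2, a receptor chain for interleukin 12, stood at 20.2 against 12.1 (0.56) and, like Il12b, passed the filter through the congenic array alone, and Il12a, Il23a and Il12rb1 were dim.

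The common gamma chain family, counted together with interleukin 13 and its receptor chains, had no member past 1.5-fold among 8 expressed of 16. Its median was 0.07. Over all expressed genes 12.9% passed the size rule, so this count of 0 among 8 is not read as a result. Il2rg, the gene of the gamma chain itself, was not among the members. Il4ra, the chain shared by the interleukin 4 and interleukin 13 receptors, stood at 137 against 117 (0.22), and Il13ra1, its partner on non-lymphoid cells, at 192 against 209 (-0.12) with 4 expressed probe sets between -0.30 and 0.02. The decoy receptor Il13ra2 was close to the size rule at 32.1 against 20.3 (0.55). Il15, which maintains NK cells, stood at 40.2 against 29.95 (0.37), and Il15ra, which presents it, at 126 against 133 (-0.07). Il7, a survival factor for lymphocytes, stood at 84.3 against 90.1 (-0.09), its receptor Il7r at 42.0 against 52.5 (-0.29) and the shared chain Il2rb at 25.9 against 21.7 (0.21). Il16, a chemoattractant for CD4 cells, belongs to none of these families and had probe sets at 0.44, 0.60 and -0.11.

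**Figure D4:**
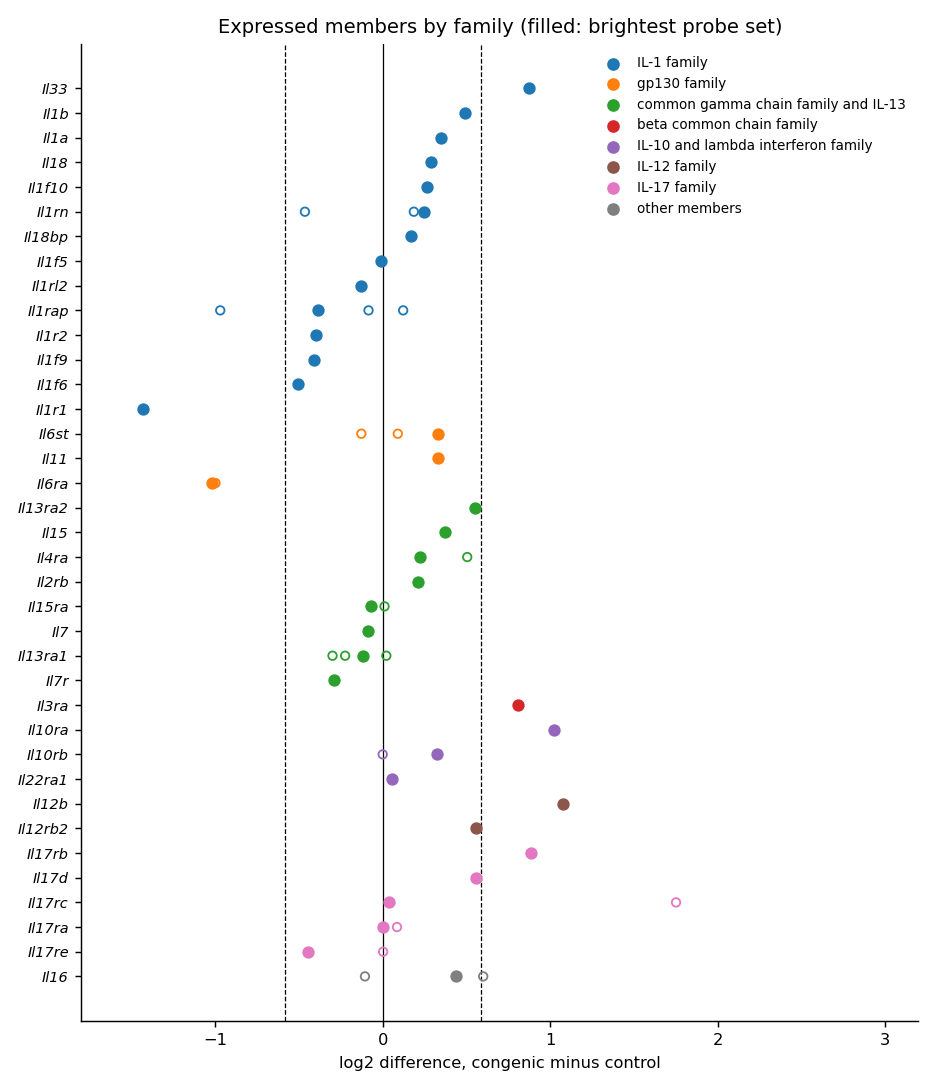
The log2 difference (congenic minus control) of each expressed member, by family. Filled points are the brightest probe set and open points the other expressed probe sets of the same gene, with dashed lines at 1.5-fold. The filled and open points of Il6ra fall together, while those of Il17rc and Il1rap spread widely.

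In all, 12 members had 2 or more expressed probe sets, and in 3 of them all differed in the same direction. These were Il6ra, Il4ra and Il17rc. The range between probe sets had a median of 0.39 over the 12 members and 0.31 over the 5189 genes with several expressed probe sets, and the within-gene SD was 0.40 and 0.34. Probe sets of a gene read the same 2 arrays and are no replicates. Of the 7 members past 1.5-fold, Il6ra alone had a second expressed probe set.

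On chromosome 1, where Bglu3 maps, lie 9 members, of which 3 were expressed, Il1r1, Il1r2 and Il1rl2. All 3 were lower on the congenic array at any size, 1 of them past 1.5-fold, with a median of -0.40. The 34 expressed members elsewhere had a median of 0.26, or 0.21 with expression required on both arrays. They include the 5 that passed the filter through the congenic array alone. Of all 732 expressed genes on chromosome 1, 9.97% were higher and 6.28% lower by 1.5-fold, with a median of 0.04. Lower at any size were 327 of these 732. These 3 genes are neighbours in the gene order of assembly GRCm38.p6, in a cluster with Il1rl1, Il18r1 and Il18rap. Of the 10 protein-coding genes on either side of the cluster, 12 were expressed, and 3 of these were higher by 1.5-fold and 0 lower, to be read beside the shares just given for the chromosome. The 3 were Npas2, Tbc1d8 and Map4k4, and Map4k4, next to Il1r2, stood at 51.2 against 27.4 (0.79). The 12 expressed neighbours ranged from -0.56 to 0.81 with a median of 0.11, and dim neighbours are left out of this range. Il1r1 had the largest difference of all expressed members, so its place outside this range cannot be weighed. Il10, Il20 and Il24, a further cluster on the chromosome, and Il17a were dim. The sources used here do not say whether the cluster lies inside the donor segment.

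Genes upstream and downstream of interleukins were described by lists drawn up from textbook pathways. Over all 96 expressed genes of the 7 lists, 19 were higher (19.8%) and 5 lower (5.21%), against 7.59% and 5.26% of all expressed genes. Most of the higher genes came from 2 lists, that of the inflammasome (6) and that of interleukin 6 targets of hepatocytes (8).

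The inflammasome list, which holds the machinery that matures interleukins 1 beta and 18, had 6 of 8 expressed genes higher, none lower and a median of 0.92. Pycard, the adaptor that joins sensor and caspase, stood at 271 against 98.3 (1.42). The channel gene Panx1 stood at 63.2 against 22.2 (1.33). Nlrp3, the sensor, stood at 67.7 against 30.8 (1.02), and Casp1, the protease that cuts both precursors, at 203 against 100.1 (0.99). All 4 passed 1.5-fold, whereas their substrates Il1b and Il18 were within 1.5-fold. The list's lowest members were P2rx7, an ATP-gated channel (0.40), and Gsdmd, the pore-forming gasdermin (-0.00).

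Of 22 hepatocyte genes known as targets of interleukin 6, 8 were higher and none lower, with a median of 0.28. Il6ra was lower and Il6 dim, and how the list relates to them was not tested. Orm2, an acute phase glycoprotein gene (2.60), and Saa2, a serum amyloid A gene (2.26), were the highest, and Steap4, a metalloreductase gene (-0.49), and Crp (-0.28) the lowest. Members of the serum amyloid and orosomucoid families can share probes. The 3 fibrinogen chain genes lay between 0.13 and 0.17.

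Relays and brakes between receptor and nucleus are counted next by their brightest probe set. Over all expressed genes 12.9% passed 1.5-fold, and 7.94% of those with mean intensities from 100 to 500. Low counts in these lists are therefore not read as a result. Of 10 expressed Jak and Stat genes none was higher and 1 lower, with a median of 0.07. Stat6, which carries the interleukin 4 signal, was at 0.49 and Jak3, the kinase of the common gamma chain, at 0.35, while Stat4, which carries the interleukin 12 signal, was lower at 25.0 against 42.0 (-0.65), and Stat5b was at -0.29, with a further probe set at -0.99. Stat3 itself stood at 732 against 680 (0.11). Of 15 expressed brakes on this signalling none was higher and 1 lower, with a median of -0.02. Socs1 was the lower one (-0.69), and Socs3, induced by interleukin 6 through Stat3, stood at 243 against 357 (-0.55) with 3 probe sets from -0.71 to -0.55. Socs5 (0.37) and Socs4 (0.27) were the highest, and the 3 probe sets of Socs4 ranged from -0.22 to 0.71. Probe sets other than the brightest reached 0.80 for Socs2, 0.74 for Ptpn6 and 0.65 for Ptpn11.

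The MyD88 and NF-kappaB relay had 20 expressed genes, of which none was higher and 1 lower, with a median of 0.17. Nfkbiz, an interleukin 1 induced partner of NF-kappaB, was the lower one at 337 against 761 (-1.16), and its probe sets spread up to 0.81. Relb was next (-0.46), and Irak2 and Tab2, both at 0.46, were the highest. Among receptors and ligands outside the Il symbols, 4 of 12 were higher and 1 lower. Csf2rb, the beta chain that pairs with Il3ra, was higher at 544 against 294 (0.88), and its near-copy Csf2rb2, whose transcripts its probes may share, was at 0.40. Also higher was Traf3ip2, the adaptor of interleukin 17 receptors (0.79). Lifr, the leukemia inhibitory factor receptor, which also pairs with Il6st, was lower at 409 against 652 (-0.67), with probe sets from -0.91 to -0.12, and Sigirr, an inhibitory relative of Il1r1, was at -0.45. Of 9 expressed interleukin 4 and 13 targets of macrophages, 1 was higher and 1 lower, with a median of 0.05. Chil3, a chitinase-like gene also made by other myeloid cells, was the higher one, at 433 against 103 (2.02), and Cd209a the lower at 5.9 against 25.5 (-1.49). Ccl24 was at 0.18 and Pdcd1lg2, just short of the size rule, at -0.583.

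**Figure D5:**
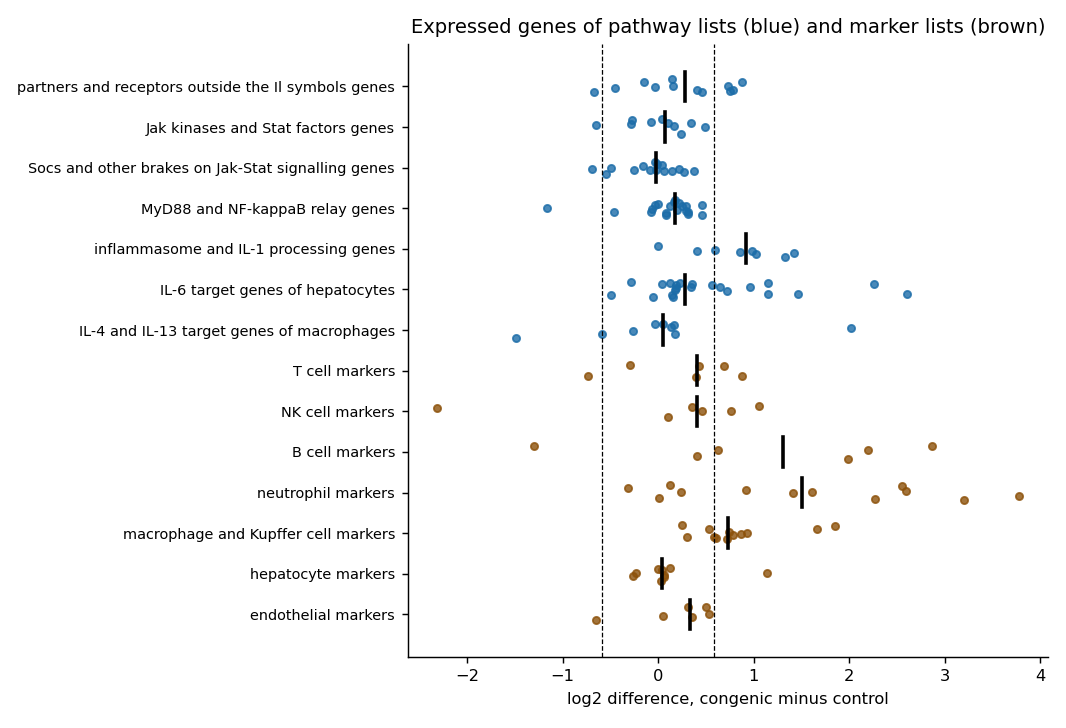
The log2 difference (congenic minus control) of each expressed gene in 7 pathway lists (blue) and 7 marker lists (brown), with black bars at list medians and dashed lines at 1.5-fold. The inflammasome list has its median at 0.92, and the neutrophil and macrophage markers have theirs at 1.51 and 0.73.

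Several receptors named above belong to leukocytes, and markers of leukocytes differed between the arrays too. In whole liver RNA, more cells of a type and more RNA per cell cannot be told apart. Macrophage and Kupffer cell markers had 8 of 12 expressed genes higher and 0 lower, and the sum over 13 measured genes was 27597 (congenic) and 16982 (control), a ratio of 1.63. Il10ra differed by 1.02, Il3ra by 0.81 and Csf2rb by 0.88 beside a median of 0.73 for these markers. The neutrophil, B cell, T cell and NK cell marker medians were 1.51, 1.31, 0.41 and 0.41. Marker counts in this paragraph stand beside 7.59% higher and 5.26% lower over all expressed genes. Neutrophil markers had 8 of 12 higher and 0 lower (sums of 4347 and 1443) and B cell markers 4 of 6 higher and 1 lower (1107 and 298). T cell markers had 2 of 6 higher and 1 lower with sums of 447 and 454, and NK cell markers 2 of 6 higher and 1 lower (343 and 278). Of 8 eosinophil and mast cell markers 2 were expressed, 1 of them higher, and the repeated low value of 1 was the reading of 1 gene (congenic) and 2 genes (control). The part of these markers in the values of Il10ra, Il3ra, Il12b, Il33, Il17rb and the inflammasome genes was not tested.

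For hepatocyte markers the median was 0.05, 1 of 9 was higher and 0 lower, and the ratio of sums was 1.06, beside -1.02 for Il6ra and -1.43 for Il1r1. The endothelial median was 0.33, 0 of 6 genes being higher and 1 lower (sums of 2530 and 2326), and the stellate median 0.52, 3 of 6 being higher and 0 lower (2647 and 1657). All 4 cholangiocyte markers lay within 1.5-fold, around a median of -0.15 (143 and 162). Sums are weighted toward the brightest genes of each list. The part of these cell types in the values of Il1r1 and Il6ra was not tested.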

How the data were processed

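Liver RNA was measured on 2 arrays. The authors deposited a linear intensity for each of 45101 probe sets on each array, made from biotinylated cRNA of 8 µg total RNA per the labels' protocols. The sources used here do not give the summary of probes or the scaling of arrays. The array medians differed by -0.02 after log2(intensity + 5), so the deposited intensities were used without rescaling. The 64 control probe sets were left out. Genes were named from 34945 probe sets with 1 symbol in the platform annotation. All 73 members had the same symbol in the RefSeq gene table of GRCm38.p6, used for chromosome and gene order.

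The brightest probe set (highest mean of both arrays) stood for a gene. The members, lists and size rules were chosen with earlier results of these data known. Named members are those past 1.5-fold, the 5 with the highest intensities, those whose probe sets disagree in direction with 1 past 1.5-fold, those on chromosome 1 and a fixed set around interleukins 1, 6, 10, 18 and 33. Others are named to complete a family. In each pathway list the 2 highest and 2 lowest genes are named. With 1 array per group no test was made, and the number of arrays limits the precision. Alternatives were other scalings (median, quantile, loess with span 0.3), pseudocounts of 20 and none, other filters, other probe set rules and a 2-fold rule. Calculations used Python 3.11.15, pandas 2.3.3 and statsmodels 0.14.6. The counting code was run on simulated data with changes far above the noise, which checks the code and not the calls.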

Additional observations from a re-analysis of the deposited data

How the results depend on the processing

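Il1r1 and Il6ra were lower by 1.5-fold under every alternative run. Il1r1 was also lower by 2-fold in all of them, whereas Il6ra fell just short of 2-fold under median centring (-0.996) and with a pseudocount of 20 (-0.997). No member past the size rule changed direction. The same 5 higher members were called under median centring, quantile normalization and removal of the loess trend. Of these 5, Il12b was lost with a pseudocount of 20 and with expression required on both arrays, Il17rb when probe sets had to end in a plain _at, and Il33, Il17rb and Il3ra at 2-fold, which left 2. With no pseudocount 8 members were higher, adding Il12rb2, Il13ra2 and Il17d. With the 75th percentile as the filter 17 members were expressed and 1 was higher, Il17rb. With no filter all 73 counted, 7 being higher and 9 lower, against 8.78% and 8.06% of all 18193 genes. Il17rc was added to the higher members with means over expressed probe sets and with plain _at probe sets. The median of the members was 0.22 as reported, 0.11 with expression required on both arrays and -0.00048 with no filter. The median on chromosome 1 was -0.30 with a pseudocount of 20, -1.43 at the 75th percentile, where Il1r1 alone was left, -0.026 with no filter and -0.92 with plain _at probe sets, and that elsewhere was 0.018 with no filter. Of pathway genes, 9 were higher and 2 lower at 2-fold, 3 were lower with a pseudocount of 20 or plain _at probe sets, and 2 at the 75th percentile. Fewer genes pass a stricter filter by construction, and the cause of the other shifts was not tested. Il6 reached the size rule (0.73) only without a filter. No paired analysis was possible because each group has 1 array. Low signal limits the values of dim members.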

Other observations

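Of the probe sets, 3 named an interleukin symbol together with another gene and were not counted among the members. The probe set of Il4i1 and Il4i1b stood at 31.3 in congenic and 20.8 in control liver (log2 difference 0.50). That of Il22 and Iltifb was dim, at 3.1 and 1.71. That of Il2 and Ntan1 stood at 351 and 326 (0.10), whereas the probe set of Il2 alone was dim at 6 and 8.6.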
